A study of Mus musculus with 8 samples.

Results

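Epithelial-mesenchymal transition (EMT) genes were followed in mouse embryonic stem cells (ESCs) before and after differentiation with retinoic acid (RA). The set was given as a list of 10 gene symbols (Cdh1, Epcam, Cdh2, Cdh11, Vim, Twist1, Snai2, Snai1, Zeb1 and Zeb2), all of which were found among the 24421 genes counted. The cells were of the R1 line, an established mouse ESC line. Undiff cells were kept, by the study's methods, in growth medium with leukaemia inhibitory factor, whereas for Day4 the cells formed embryoid bodies without that factor for 4 days and were then exposed to RA for 4 days, at 2 µM by the methods and 2 mM by the labels. The labels give embryoid bodies as the tissue of every library, Undiff included. RA, removal of the factor, embryoid body culture and time in culture therefore changed together and cannot be told apart. Poly(A) RNA was sequenced with 2 Oxford Nanopore Technologies (ONT) kits, Direct RNA, which reads the native RNA strand from 500 ng, and cDNA, which reads amplified copies from 50 ng.

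The 8 libraries fell into 4 groups of 2 replicates, Direct RNA Undiff, Direct RNA Day4, cDNA Undiff and cDNA Day4. The replicates were, by the methods, cultures grown and treated separately, and the same RNA served both kits, so the kits are 2 readings of the same cultures and not independent repeats of the differentiation. Between 283461 and 907489 reads fell on genes in Direct RNA libraries and between 948657 and 2088592 in cDNA libraries, and replicate 2 was the deeper library of every group. Levels are given as reads and as CPM, reads per 1000000 reads on genes. A floor of 3 reads was taken for each library, equal to 1.44 to 10.6 CPM. The pluripotency markers were chosen with earlier results of these data known, so they do not check the labels. All 8 tested (Pou5f1, Nanog and others) were called lower in Day4 on both kits. With 1 library left out 6 to 8 were called in Direct RNA and 2 (without Undiff replicate 2) to 7 in cDNA. Their summed level was 11387 and 13379 CPM in the Direct RNA Undiff libraries and 20815 and 23510 CPM in the cDNA ones, against at most 920 CPM in any Day4 library. Dppa5a alone gave 4985 and 6850 CPM in the Direct RNA Undiff libraries and 18125 and 20187 CPM in the cDNA Undiff ones.

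In EMT, cells of an epithelial sheet lose their junctions and apical-basal polarity and take on the shape, matrix and motility of mesenchyme, as happens in the embryo at gastrulation and in the neural crest. A cadherin switch is a hallmark of it: E-cadherin, encoded by Cdh1, is replaced by N-cadherin (Cdh2) and, in mesenchyme, by OB-cadherin (Cdh11), while the intermediate filament protein vimentin (Vim) accumulates. Transcription factors of the Snail, Zeb and Twist families drive the change and are known to bind E-box sequences in target genes, the best studied target being Cdh1. Mouse ESCs themselves grow as compact colonies held together by E-cadherin.

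Between Undiff and Day4, both epithelial adhesion genes fell (Cdh1 and Epcam), the mesenchymal genes Cdh2, Cdh11 and Vim rose, and 2 of the 5 transcription factors rose (Twist1 and Snai2). With DESeq2, 7 of the 10 were called in Direct RNA, 5 higher and 2 lower in Day4, against 17.2% of the 9646 genes with a mean normalized count of at least 5 (9.54% higher and 7.67% lower). In cDNA, 7 of the 10 were also called, 5 higher and 2 lower, against 17.9% of 10271 genes (8.69% higher and 9.24% lower). The 10 genes were chosen with earlier results of these data known, so the comparison with all genes is a description. A gene was called with a log2 fold change (log2FC) of 1 or more in either direction, a Benjamini-Hochberg adjusted p no higher than 0.05 and a mean normalized count of 5 or more, which 9 of the 10 genes reached on each kit. The genes called were the same on both kits: Cdh1 and Epcam lower, and Cdh2, Cdh11, Vim, Twist1 and Snai2 higher. Snai1, Zeb1 and Zeb2 were not called on either kit. In every one of the 10 genes the CPM of the Undiff and Day4 libraries did not overlap, on both kits, a separation also seen for 67.6% of all genes with a mean of at least 5 in Direct RNA and 66.3% in cDNA. The median log2FC of the 10 was 2.66 in Direct RNA (0.03 for all genes with a mean of at least 5) and 2.79 in cDNA (0.00), and with genes that had no read in Undiff set at their lower bound it was 1.92 in Direct RNA and 2.79 in cDNA. Since these are bulk samples, fewer cells of a type and less RNA per cell cannot be told apart in any of these changes.

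**Figure D1:**
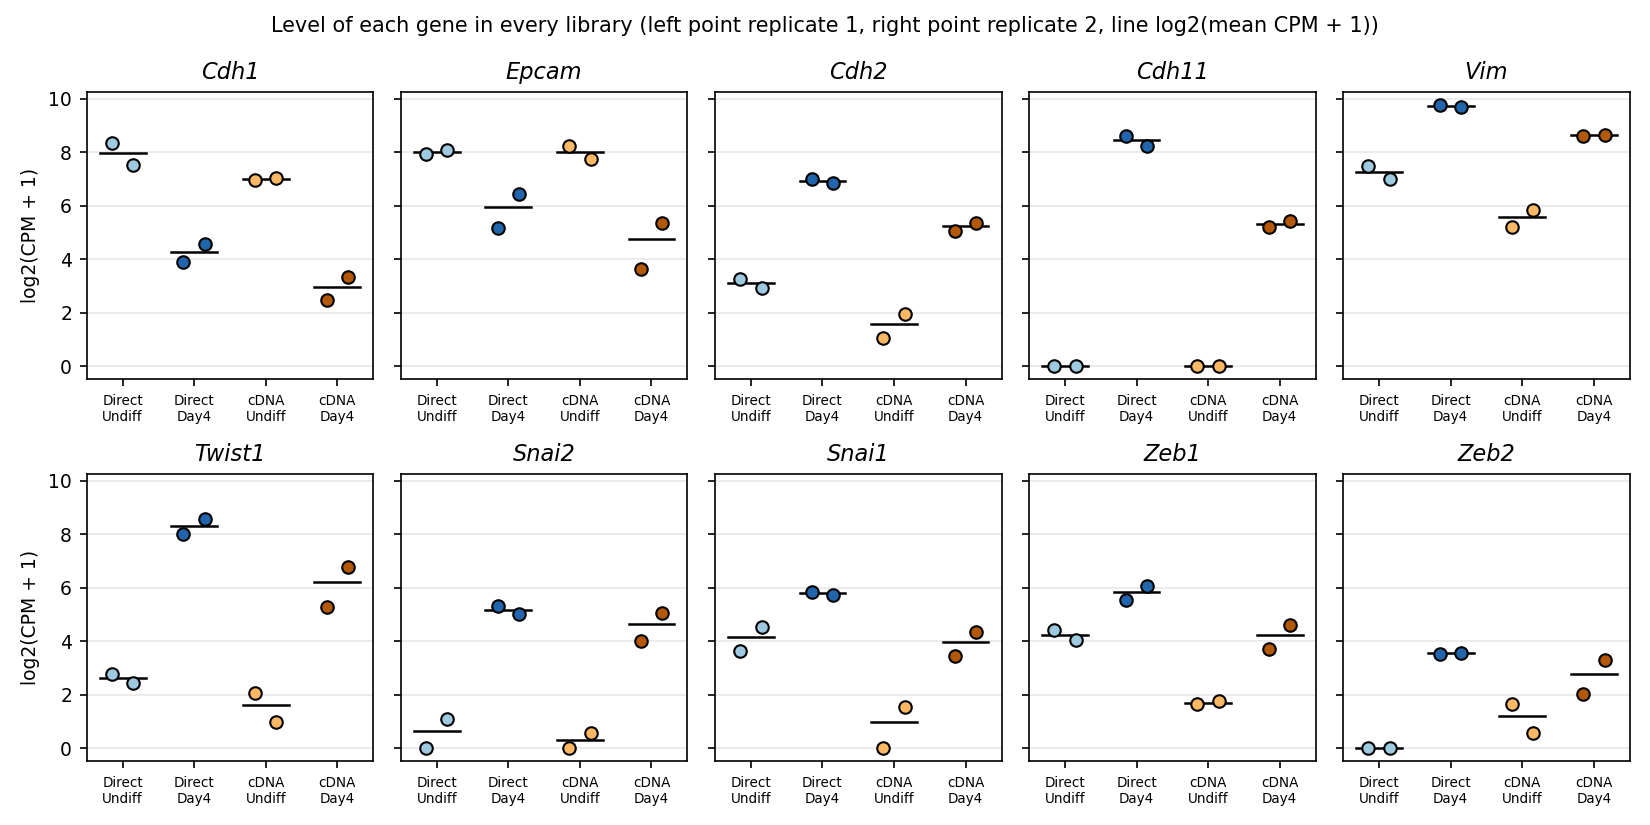
Level of each of the 10 genes in the 8 libraries, as log2(CPM + 1) on a shared vertical axis, by kit (Direct stands for Direct RNA) and state; points are replicates 1 (left) and 2 (right) and the line is the log2 of the mean CPM plus 1. Cdh1 and Epcam sit lower in Day4 than in Undiff on both kits and the other 8 genes sit higher, with no overlap between states, and Cdh11 has no read in any Undiff library.

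The first epithelial member, Cdh1 (ENSMUSG00000000303, chr8:106603351-106670246, plus strand, GRCm38), encodes E-cadherin, the calcium-dependent adhesion molecule of adherens junctions. In Direct RNA it had 113 and 166 reads in the Undiff replicates (324 and 183 CPM) and 4 and 17 reads in the Day4 replicates (14.1 and 23.0 CPM). The cDNA libraries held 117 and 270 reads in Undiff (123 and 129 CPM) and 6 and 19 reads in Day4 (4.55 and 9.15 CPM). All 4 Undiff libraries were above all 4 Day4 libraries, and the groups were far apart compared with the spread between replicates. The mean level was thus 13.6-fold lower in Day4 in Direct RNA (254 ± 100 to 18.6 ± 6.32 CPM, SD, n = 2) and 18.4-fold lower in cDNA (126 ± 4.2 to 6.85 ± 3.25 CPM). The DESeq2 log2FC was -3.63 (s.e. 0.53, adjusted p = 1.0e-09) in Direct RNA and -4.37 (s.e. 0.54, adjusted p = 9.0e-14) in cDNA, the call being kept in every alternative that could test it.

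Epcam (ENSMUSG00000045394, chr17:87635979-87651129, plus strand) encodes the epithelial cell adhesion molecule, a membrane glycoprotein that ESCs also carry. It had 86 and 247 reads in Direct RNA Undiff (247 and 272 CPM) and 10 and 64 reads in Day4 (35.3 and 86.8 CPM). With the cDNA kit it had 284 and 445 reads in Undiff (299 and 213 CPM) and 15 and 84 reads in Day4 (11.4 and 40.4 CPM). The states did not overlap, and Undiff levels were close between kits, at 259 ± 17.9 CPM with Direct RNA and 256 ± 61.0 CPM with cDNA. The log2FC was -2.06 (s.e. 0.46, adjusted p = 0.00020) in Direct RNA, a 4.25-fold lower mean, and -3.56 (s.e. 0.52, adjusted p = 5.6e-10) in cDNA, a 9.89-fold lower mean. Without Undiff replicate 2, the Direct RNA call was lost (log2FC -1.93, adjusted p = 0.20).

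Within Day4, the library numbered 2 had a higher CPM of Epcam and of Cdh1 than the library numbered 1 on both kits, but for Cdh1 the counting intervals of these libraries overlapped (95% Wilson, 5.49 to 36.3 and 14.4 to 36.9 CPM in Direct RNA, 2.09 to 9.93 and 5.86 to 14.3 CPM in cDNA). The pluripotency gene Pou5f1 also had a higher CPM in the library numbered 2 of each kit (7.06 and 62.4 CPM with Direct RNA, 1.52 and 26.5 CPM with cDNA). Whether equal numbers mark the same Day4 culture on both kits is not given, and over 1395 genes the replicate differences of the Day4 libraries correlated with r = -0.42 between kits. Pou5f1 had 2 and 46 reads in Direct RNA Day4 replicates 1 and 2 and 2 and 55 reads in cDNA. Over all 8 pluripotency markers, the summed level was 134 and 560 CPM in the Direct RNA Day4 replicates and 83.4 and 920 CPM in the cDNA ones. Dppa5a alone gave 60.0 and 371 CPM in the Direct RNA Day4 replicates and 75.1 and 826 CPM in the cDNA ones. The part of these 8 markers in the Day4 levels of Cdh1 and Epcam was not tested.

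The promoter sequences below are shown because the Snail, Zeb and Twist proteins bind E-boxes, of which CAGGTG is the form best known from Cdh1 repression. RefSeq promoter entries (build GRCm38.p6) were matched for 5 of the 10 genes, Epcam, Vim, Zeb2, Snai1 and Twist1, and were not matched for Cdh1, Cdh2, Cdh11, Zeb1 and Snai2. The 250 bases before each start site were searched for CAGGTG on both strands (CAGGTG or CACCTG as read 5′ to 3′). Of 32851 RefSeq windows of that length, 17.2% held at least 1 match and 2.06% at least 2. Epcam, which fell, held 2 matches, 187 and 19 bases before the start site, and Snai1 held 1 match, 126 bases before it. The windows of Twist1 and Vim and the 4 windows of Zeb2 held none, which says only that these letters are absent there. Each window is written 5′ to 3′ on the plus strand, and capitals mark the matches. The windows are chr17:87635729-87635978 for Epcam, chr2:167537945-167538194 for Snai1 and chr12:33957421-33957670 for Twist1, the last shown as a window without a match from the transcription factor with the highest Day4 level.
Epcam: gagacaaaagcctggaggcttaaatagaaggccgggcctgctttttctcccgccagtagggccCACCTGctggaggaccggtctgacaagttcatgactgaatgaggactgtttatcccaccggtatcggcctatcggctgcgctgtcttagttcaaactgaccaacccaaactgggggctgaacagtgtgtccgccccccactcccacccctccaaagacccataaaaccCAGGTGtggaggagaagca
Snai1: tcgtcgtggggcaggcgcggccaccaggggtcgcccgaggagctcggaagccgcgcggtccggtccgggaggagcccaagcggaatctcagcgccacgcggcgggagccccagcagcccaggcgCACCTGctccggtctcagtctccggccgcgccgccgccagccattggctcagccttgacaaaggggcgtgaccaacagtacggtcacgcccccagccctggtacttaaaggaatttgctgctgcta
Twist1: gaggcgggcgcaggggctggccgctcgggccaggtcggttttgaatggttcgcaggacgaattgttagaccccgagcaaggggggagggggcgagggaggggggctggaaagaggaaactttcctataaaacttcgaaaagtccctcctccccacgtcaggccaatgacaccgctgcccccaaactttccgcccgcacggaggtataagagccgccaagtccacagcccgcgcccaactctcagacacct

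Of the mesenchymal members, Cdh11 (ENSMUSG00000031673, chr8:102632095-102785642, minus strand) encodes OB-cadherin, known from osteoblasts and other mesenchyme. No Undiff library had a read of it. Day4 libraries had 112 and 222 reads in Direct RNA (395 and 301 CPM) and 48 and 88 reads in cDNA (36.4 and 42.4 CPM). Cdh11 was therefore the member that separated the states as presence against no read. Against a floor of 3 reads per Undiff library, the mean level was at least 58.4-fold higher in Day4 in Direct RNA and at least 17.1-fold higher in cDNA. DESeq2 called it on both kits (adjusted p = 3.5e-12 and 6.7e-06), with fitted log2FC values of 8.02 and 6.26 that depend on the prior because one state is at 0. With a replicate block, which the shared numbers of the labels allow but do not explain, the Direct RNA call was lost (adjusted p = 0.83, or 0.15 without shrinkage), with a log2FC of 1.67 that shrinkage set and 9.95 without it.

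Cdh2 (ENSMUSG00000024304, chr18:16588877-16809246, minus strand) encodes N-cadherin, the adhesion molecule of neural tissue, heart and early mesoderm. It had 3 and 6 reads in Direct RNA Undiff (8.61 and 6.61 CPM) and 36 and 84 reads in Day4 (127 and 114 CPM). In cDNA it had 1 and 6 reads in Undiff (1.05 and 2.87 CPM) and 43 and 84 reads in Day4 (32.6 and 40.4 CPM). Every Day4 library was above every Undiff library, also across kits. The mean rose 15.8-fold in Direct RNA (log2FC 3.68, s.e. 0.68, adjusted p = 3.6e-06) and 18.6-fold in cDNA (3.48, s.e. 0.82, adjusted p = 0.00050). In cDNA the call was lost without Day4 replicate 1 (adjusted p = 0.062) or without Day4 replicate 2 (adjusted p = 0.14).

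Vim (ENSMUSG00000026728, chr2:13573927-13582826, plus strand) encodes vimentin, the main intermediate filament of mesenchymal cells. It was also present in Undiff, with 63 and 116 reads in Direct RNA (181 and 128 CPM) and 34 and 119 reads in cDNA (35.8 and 57.0 CPM). In Day4 it had 247 and 611 reads in Direct RNA (871 and 828 CPM) and 512 and 840 reads in cDNA (388 and 404 CPM). Vim was thus expressed in both states and moved by the smallest fold of the mesenchymal members called, with Day4 replicates close together. Its mean was 5.51-fold higher in Day4 in Direct RNA (154 ± 37.5 to 850 ± 30.4 CPM, log2FC 2.36, s.e. 0.31, adjusted p = 6.8e-12). In cDNA the mean was 8.54-fold higher (46.4 ± 14.9 to 396 ± 11.3 CPM, 2.72, s.e. 0.42, adjusted p = 7.5e-09).

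The composition of the cadherin reads within a library needs no scaling between libraries. Of the reads on Cdh1, Cdh2 and Cdh11 together, Cdh1 took 97.4% (95% Wilson interval 92.7 to 99.1) and 96.5% (92.6 to 98.4) in Direct RNA Undiff and 99.2% (95.4 to 99.9) and 97.8% (95.3 to 99.0) in cDNA Undiff. In Day4 it took 2.63% (1.03 to 6.57) and 5.26% (3.31 to 8.27) in Direct RNA and 6.19% (2.87 to 12.8) and 9.95% (6.46 to 15.0) in cDNA. The Cdh1 share thus went from nearly all cadherin reads of the 3 genes to a small part of them in both kits, with no overlap of the intervals between states. Cdh11 took 73.7% and 68.7% of these reads in Direct RNA Day4, but 49.5% and 46.1% in cDNA Day4, where Cdh2 took 44.3% and 44.0%. In Direct RNA Day4, Cdh2 took 23.7% and 26.0%. Which of the mesenchymal cadherins led in Day4 was therefore Cdh11 in Direct RNA, whereas in cDNA the intervals of the pair overlapped (39.7 to 59.3 and 34.8 to 54.2 in replicate 1). These shares are a description, as an exact permutation test of 2 against 2 libraries cannot go below p = 0.33, and the intervals cover counting error only, since amplified reads are not independent molecules. With all 21 cadherins of the lists in the denominator, the mean Cdh1 share in Undiff was 82.0% in Direct RNA and 89.8% in cDNA.

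**Figure D2:**
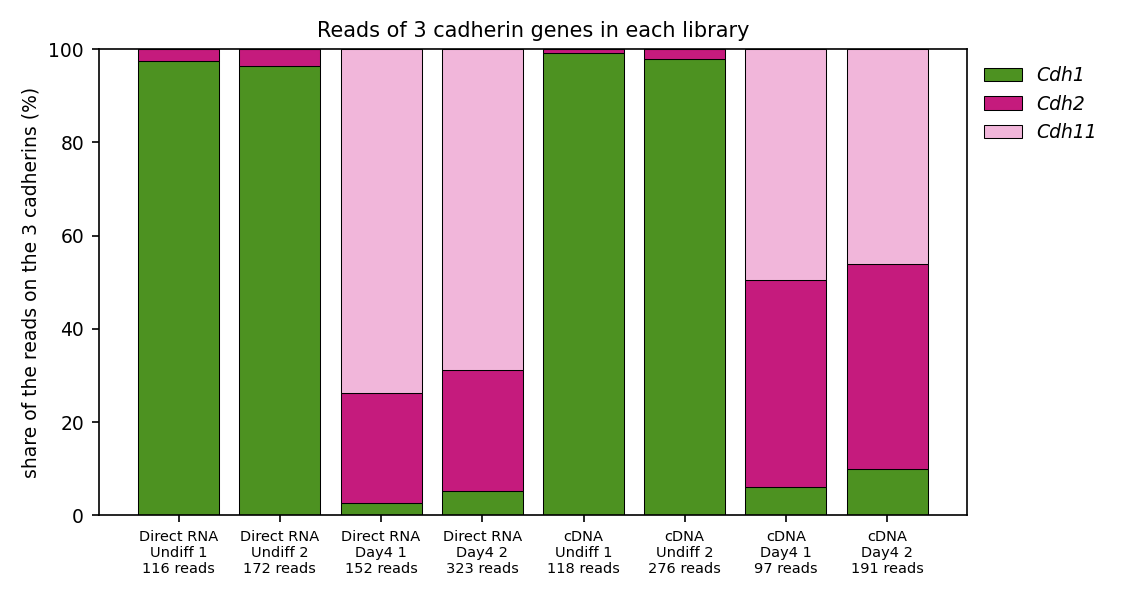
Share (%) of the reads on Cdh1, Cdh2 and Cdh11 taken by each gene in each library, stacked to 100%, with the number of reads under each bar. Cdh1 takes at least 96.5% in the 4 Undiff libraries and at most 9.95% in the 4 Day4 libraries, and Cdh11 takes more than Cdh2 in Direct RNA Day4.

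Among the transcription factors, Twist1 (ENSMUSG00000035799, chr12:33957671-33959829, plus strand) encodes a basic helix-loop-helix factor of mesoderm and neural crest mesenchyme. It had 2 and 4 reads in Direct RNA Undiff (5.74 and 4.41 CPM) and 72 and 279 reads in Day4 (254 and 378 CPM). The cDNA kit gave 3 and 2 reads in Undiff (3.16 and 0.96 CPM) and 50 and 224 reads in Day4 (37.9 and 108 CPM). Per kilobase of transcript Twist1 was the most abundant of the 5 factors in both Day4 groups, and its 2 cDNA Day4 replicates were far apart. The mean was 62.3-fold higher in Day4 in Direct RNA (log2FC 5.60, s.e. 0.65, adjusted p = 2.4e-15) and 35.4-fold higher in cDNA (4.60, s.e. 0.80, adjusted p = 6.2e-07). Without cDNA Day4 replicate 2, the cDNA call was lost (adjusted p = 0.073).

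Snai2 (ENSMUSG00000022676, chr16:14705852-14709385, plus strand) encodes Slug, a zinc-finger repressor of the Snail family known from neural crest. It had 0 and 1 read in Direct RNA Undiff and 11 and 23 reads in Day4 (38.8 and 31.2 CPM). The cDNA libraries held 0 and 1 read in Undiff and 20 and 67 reads in Day4 (15.2 and 32.3 CPM). With 1 Undiff read on each kit, the ratio of reads pooled over replicates, relative to pooled depth, was 41.8 (exact 95% counting interval 7.02 to 1700) in Direct RNA and 77.8 (13.6 to 3109) in cDNA, and the ratio of mean CPM used for the genes above was 63.5 and 99.1. DESeq2 gave a log2FC of 4.11 (s.e. 1.17, adjusted p = 0.0067) in Direct RNA and 4.73 (s.e. 1.15, adjusted p = 0.00086) in cDNA. In Direct RNA the call was lost whichever of the 4 libraries was left out (adjusted p from 0.11 to 0.26), and in cDNA it was lost without Undiff replicate 2 (0.060) or Day4 replicate 2 (0.24). A replicate block also ended the Direct RNA call of Snai2 (log2FC 3.65, adjusted p = 0.071).

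Snai1 (ENSMUSG00000042821, chr2:167538195-167542814, plus strand) encodes Snail, the founding repressor of that family. It had 4 and 20 reads in Direct RNA Undiff (11.5 and 22.0 CPM) and 16 and 38 reads in Day4 (56.4 and 51.5 CPM). With the cDNA kit there were 0 and 4 reads in Undiff and 13 and 40 reads in Day4 (9.86 and 19.3 CPM). The states did not overlap, but the fold changes were not called by DESeq2 (1.40, s.e. 0.74, adjusted p = 0.27 in Direct RNA and 2.86, s.e. 1.09, adjusted p = 0.069 in cDNA). The edgeR quasi-likelihood test called Snai1 on both kits (adjusted p = 0.021 and 0.00026), as it did 33.8% of Direct RNA genes and 32.6% of cDNA genes with a mean of at least 5.

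Zeb1 (ENSMUSG00000024238, chr18:5591860-5775467, plus strand) encodes a zinc-finger and homeodomain repressor. It had 7 and 14 reads in Direct RNA Undiff (20.1 and 15.4 CPM) and 13 and 48 reads in Day4 (45.9 and 65.1 CPM). In cDNA it had 2 and 5 reads in Undiff (2.11 and 2.39 CPM) and 16 and 48 reads in Day4 (12.1 and 23.1 CPM). Again the states did not overlap and DESeq2 made no call (1.48, s.e. 0.72, adjusted p = 0.21 and 2.35, s.e. 0.94, adjusted p = 0.088), while edgeR called Zeb1 on both kits (adjusted p = 0.0066 and 0.00079).

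Zeb2 (ENSMUSG00000026872, chr2:44983632-45117395, minus strand), the paralogue of Zeb1, was the least abundant member per kilobase in Day4. It had no read in Direct RNA Undiff and 3 and 8 reads in Day4 (10.6 and 10.8 CPM), at least 1.80-fold higher against the floor of 3 reads per library. In cDNA it had 2 and 1 reads in Undiff and 4 and 18 reads in Day4, a ratio of mean CPM of 4.52 and of pooled reads of 6.56 (exact 95% counting interval of the latter 1.97 to 34.2). Its mean normalized counts of 2.57 and 4.91 were under the minimum of 5, so it could not be called, and its adjusted p was 0.19 in Direct RNA and 0.62 in cDNA. A change in Zeb2 was thus not resolved at this depth. Exons of Zeb2 overlap the antisense gene Zeb2os, which had 0 to 2 reads in the 8 libraries, and exons of Zeb1 overlap antisense Gm10125, which had 0 to 2 reads as well, and cDNA counting was not stated to use strand.

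**Figure D3:**
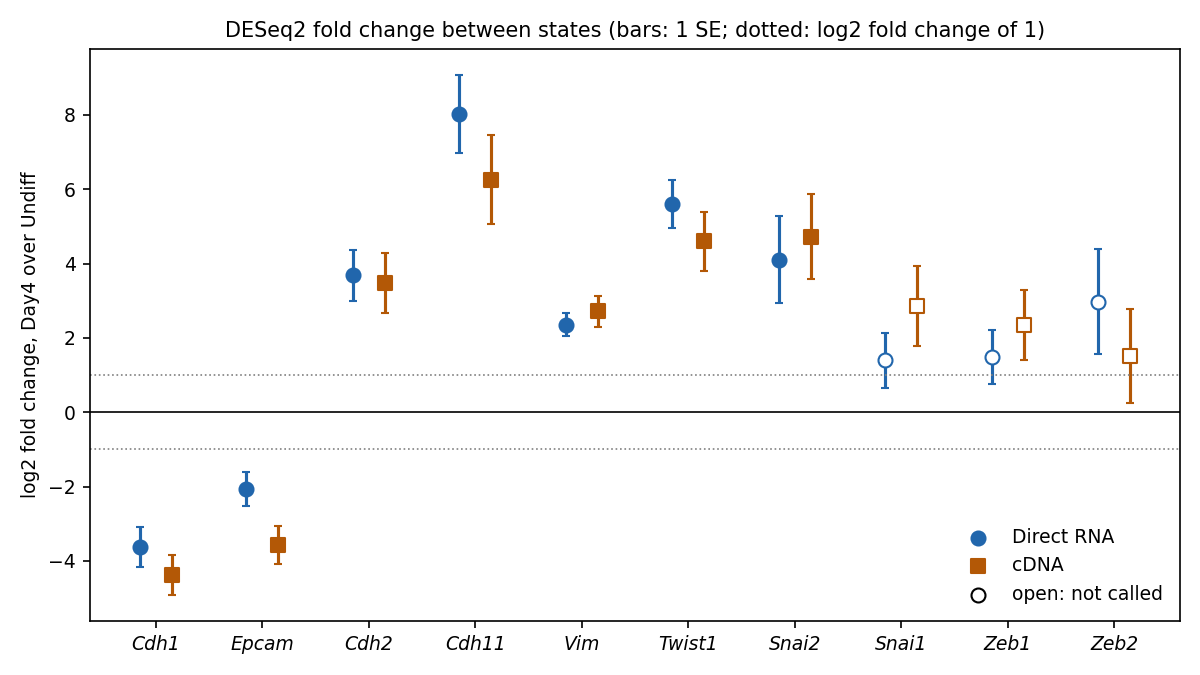
DESeq2 log2FC of Day4 over Undiff for each gene in Direct RNA (circles) and cDNA (squares), with bars of 1 s.e., dotted lines at a log2FC of 1 in size, and open symbols for genes not called. Cdh1 and Epcam are below 0 on both kits, the other 8 genes are above 0, and Snai1, Zeb1 and Zeb2 carry open symbols on both kits.

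Summed over the 5 factors, the level was 40.1 ± 4.01 CPM in Direct RNA Undiff and 471 ± 92.8 CPM in Day4, and 6.80 ± 0.82 CPM and 135 ± 79.9 CPM in cDNA. Twist1 was the largest part of the Day4 sum (316 ± 87.9 CPM with Direct RNA, 72.9 ± 49.4 CPM with cDNA, where the replicates held 37.9 and 108 CPM). With Direct RNA, a background of these factors was already read in Undiff, with Zeb1 at 17.8 ± 3.30 CPM and Snai1 at 16.8 ± 7.47 CPM. In cDNA Undiff both were under the mean floor of 2.30 CPM, Zeb1 at 2.25 ± 0.20 CPM and Snai1 at 0.96 ± 1.35 CPM.

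To compare genes with each other, CPM was divided by the length in kilobases of the longest coding transcript. In Undiff the order began with Epcam at 127 ± 8.80 CPM per kb in Direct RNA and 126 ± 29.9 in cDNA. Vim (70.4 ± 17.1) and Cdh1 (57.2 ± 22.6) came next in Direct RNA with overlapping ranges, and Cdh1 (28.5 ± 0.95) and Vim (21.2 ± 6.82) followed in cDNA without overlap. In Day4 the order began with Vim on both kits (388 ± 13.9 CPM per kb in Direct RNA and 181 ± 5.14 in cDNA), followed by Twist1 (194 ± 54.0 and 44.8 ± 30.4). Cdh11 was the third gene in Direct RNA Day4 at 61.6 ± 11.8 CPM per kb but the seventh in cDNA Day4 at 6.98 ± 0.74, and there its range overlapped those of Cdh2 (7.54 ± 1.14), Snai1 and Epcam. Cdh1 came second to last in Day4 on both kits (4.19 ± 1.43 and 1.55 ± 0.73 CPM per kb), above Zeb2 (1.17 ± 0.02 and 0.64 ± 0.44). Below the leading genes, Epcam in Direct RNA Day4 ranged from 17.3 to 42.5 CPM per kb and so overlapped Snai1, Cdh2 and Snai2. A nanopore read can span a whole transcript, so division by length may understate genes with long transcripts such as Zeb2 and Cdh11. By CPM without it, Cdh1 (254 ± 100 CPM) was above Vim (154 ± 37.5 CPM) in Direct RNA Undiff, Vim was again first in Day4 on both kits (850 ± 30.4 and 396 ± 11.3 CPM), Cdh11 (348 ± 66.6 CPM) and Twist1 (316 ± 87.9 CPM) overlapped in the next places in Direct RNA, and Twist1 (72.9 ± 49.4 CPM) and Cdh11 (39.4 ± 4.21 CPM) overlapped in cDNA.

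Whether the change between states differed between kits was tested as an interaction in DESeq2 over all 8 libraries. None of the 10 genes was called, and 2 of the 17267 genes tested (0.0116%) were. Before adjustment 1 of the 10 genes was under 0.05, as were 149 of 10426 genes whose mean reached 5, and this was Epcam, whose log2FC fell by 1.59 more in cDNA than in Direct RNA (s.e. 0.74, DESeq2 adjusted p = 1.00). With edgeR, 0 of the 10 genes were called. The intervals were wide, from -2.30 to 0.74 for Cdh1 and from -0.61 to 1.37 for Vim (95%), and a difference between kits within them was not resolved.

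The level itself differed between kits for several members. With state as a covariate, 5 of the 10 genes were called lower in cDNA than in Direct RNA and 0 higher, against 26.6% of 10426 genes called lower and 24.7% called higher. Cdh11 had the largest difference (log2FC -2.36, s.e. 0.39, adjusted p = 1.2e-08), with 348 ± 66.6 CPM in Direct RNA Day4 and 39.4 ± 4.21 CPM in cDNA Day4. The others were Snai1 (-1.74, s.e. 0.50, adjusted p = 0.0022), Zeb1 (-1.35, s.e. 0.44, adjusted p = 0.0082), Twist1 (-1.30, s.e. 0.46, adjusted p = 0.015) and Cdh2 (-1.02, s.e. 0.36, adjusted p = 0.015), whose call was lost with edgeR (-0.93) and with TMM factors (-0.91). Vim was lower in cDNA by 0.61 (adjusted p = 0.0076), under the fold required for a call. Cdh1 and Epcam were not called, at -0.36 (95% interval -1.0 to 0.29) and 0.13 (-0.71 to 0.98). Snai2 (0.01, -1.16 to 1.17) and Zeb2 (0.36, -1.32 to 2.04) had the widest intervals. The kits also differed in RNA input and strand-specific counting, and the part of either was not tested. The count of 5 rested in part on single libraries, falling to 2 without Direct RNA Day4 replicate 2 and to 3 without cDNA Undiff replicate 2 or cDNA Day4 replicate 1.

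**Figure D4:**
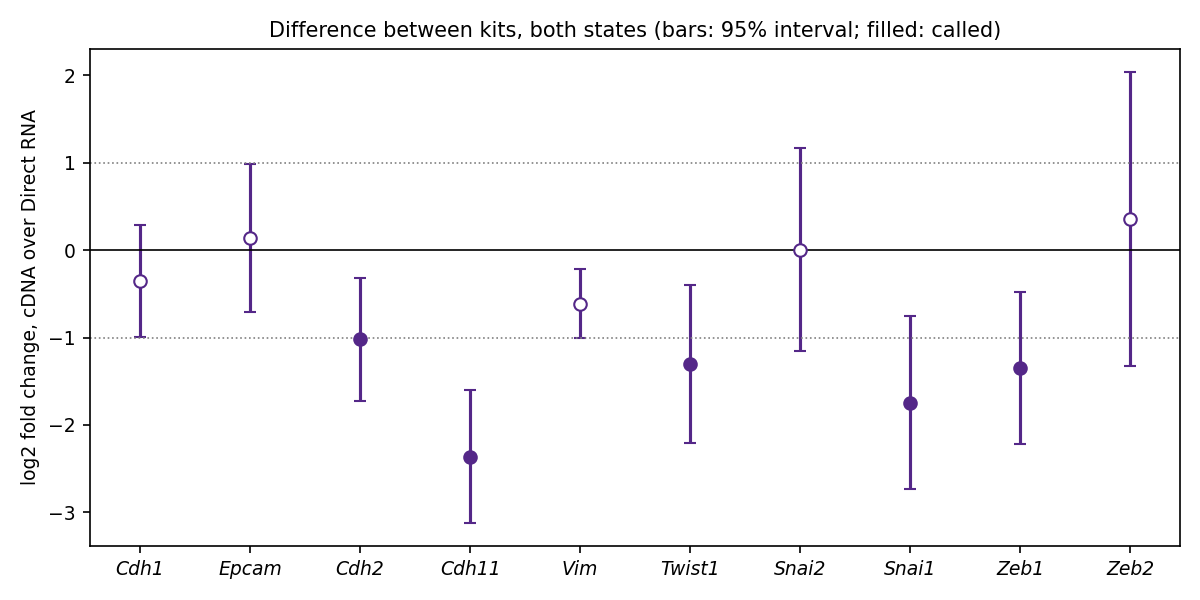
DESeq2 log2FC of cDNA over Direct RNA for each gene over both states, with 95% intervals, filled where called and dotted lines at a log2FC of 1 in size. Cdh11, Snai1, Zeb1, Twist1 and Cdh2 are called lower in cDNA, and the intervals of Cdh1, Epcam, Snai2 and Zeb2 span 0.

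For each member with a mean of at least 20 reads, the genes with the most similar course over the 8 libraries were found among 6669 genes by Pearson's r of log2(CPM + 5), centred within each kit. For Cdh1 these were Rpf2, Capsl and Acot9 (r from 0.994 to 0.996), and for Epcam Dppa3, Rplp0 and Pla2g10 (0.991 to 0.995). Dppa3 is a germline and pluripotency gene. Cdh2 was followed most closely by Tes, Cyp26a1 and Dlk1 (0.997 to 0.999) and Cdh11 by Shisa3, Tcf12 and Zfp503 (0.998 to 0.999). Cyp26a1 encodes an RA-degrading enzyme known to be induced by RA. Vim was nearest to Nicn1, Hmgb3 and Ppic (0.997 to 0.998) and Twist1 to Hoxb2, Hoxb4 and Chmp2b (0.996 to 0.998). Among the members themselves, r was 0.94 between Cdh1 and Epcam, and ranged from -0.97 to -0.93 between Cdh1 and the mesenchymal members and Twist1, and from -0.94 (Vim) to -0.79 (Twist1) between Epcam and the same genes. The points share libraries and depth, and most of each r reflects the difference between 2 states, so these values are a description. Zeb1, Snai1, Snai2 and Zeb2 had fewer reads than required.

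Genes around the 10 members were counted from lists, with genes called by the DESeq2 rule above. Of 34 epithelial junction and polarity genes, 33 were counted and 28 had a mean of at least 5 in Direct RNA, of which 7 were called higher and 4 lower in Day4. In cDNA, 4 of 27 were called higher and 3 lower, and the median log2FC values were -0.17 and -0.91 for the list against 0.03 and 0.00 for all genes. Against the background of 9.54% higher and 7.67% lower in Direct RNA and 8.69% and 9.24% in cDNA, calls in both directions were made in this list, the lower ones in cDNA at a share near that of all genes. The balance depended on the test, since edgeR called 7 higher and 8 lower in Direct RNA and 5 higher and 10 lower in cDNA. Over all genes with a mean of at least 5, edgeR called 33.8% in Direct RNA and 32.6% in cDNA in either direction. The keratin gene Krt19 rose (2.44, adjusted p = 1.4e-05 and 3.52, adjusted p = 2.2e-08), as did Dsc2, a desmosomal cadherin (4.74, adjusted p = 0.00043 and 3.57, adjusted p = 0.035). Spint2, a serine protease inhibitor of epithelia, fell by 1.12 (adjusted p = 0.023) and 1.34 (adjusted p = 0.034) on the log2 scale. With any 1 library left out, the higher calls of this list went down to 1 or 2 in Direct RNA and 1 in cDNA, and the lower calls to 0 or 1 in Direct RNA and 0 to 2 in cDNA. The Dsc2 call was lost in Direct RNA without Undiff replicate 2 or Day4 replicate 1, that of Krt19 in Direct RNA without Day4 replicate 1 (adjusted p = 0.062), and those of Dsc2 in cDNA and Spint2 on both kits whichever library was left out.

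The list of 10 epithelial transcription and splicing regulators held calls in 1 direction, lower in 4 of 7 genes in Direct RNA and 4 of 6 in cDNA, with medians of -2.17 and -2.71. Lower calls were made for 7.67% of all genes in Direct RNA and 9.24% in cDNA. Klf5 had 15 and 73 reads in Direct RNA Undiff and 1 and 2 in Day4, and 40 and 112 against 2 and 14 reads in cDNA. Its log2FC was -3.94 (adjusted p = 0.00057) in Direct RNA and -3.62 (adjusted p = 6.5e-06) in cDNA. Rbm47, an RNA-binding protein, fell by 3.12 (adjusted p = 0.022) and 3.37 (adjusted p = 0.026). Leaving out 1 library left 0 to 2 lower calls in Direct RNA and 1 or 2 in cDNA, without Klf5 in Direct RNA when either replicate 2 was left out (adjusted p = 0.41 without Undiff and 0.11 without Day4), and without Rbm47 in 3 of the 4 Direct RNA fits and in both cDNA fits that left out an Undiff library. Of the 6 catenin genes, whose proteins link cadherins to actin, 3 reached a mean of 5 on each kit and DESeq2 called none of them (1 was called higher in cDNA when each library had to hold at least 10 reads). Of 18 other cadherins, 3 had such a mean in Direct RNA, where 1 was called higher (0 whichever library was left out), and 2 in cDNA, where none was called.

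The mesenchymal lists held mostly higher calls, the direction of Cdh2, Cdh11 and Vim. Of all genes, 9.54% were called higher and 7.67% lower in Direct RNA, and 8.69% and 9.24% in cDNA. Of 40 mesenchymal matrix and motility genes, 20 of 31 were called higher and 1 lower in Direct RNA, and 11 of 28 higher and 1 lower in cDNA, with medians of 2.77 and 2.13 (2.68 and 2.13 with genes without Undiff reads at their bounds). All 11 genes called higher in cDNA were also called higher in Direct RNA. The edgeR test, which called 33.8% and 32.6% of all genes in either direction, made 23 higher calls with Direct RNA and 18 with cDNA. With at least 10 reads required in every library, DESeq2 made 4 on each kit. The fibrillar collagen gene Col3a1 had no read in any Undiff library and 525 and 625 reads in Direct RNA Day4 and 179 and 314 in cDNA Day4, at least 227-fold and at least 62.4-fold higher against the floor of 3 reads per library. Col1a2, another fibrillar collagen gene, likewise went from 0 to 151 and 111 reads and to 85 and 100 reads. The calcium-binding protein gene S100a6 went against its list and fell by 4.42 (adjusted p = 1.9e-14) and 2.79 (adjusted p = 1.6e-06). When 1 library was left out, the higher calls of the list numbered 10 (without Day4 replicate 1) to 15 in Direct RNA and 7 to 10 in cDNA, where the count was 7 without Undiff replicate 2 or either Day4 replicate.

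Of 20 other EMT transcription factors, 11 of 16 were called higher and 0 lower in Direct RNA, and 6 of 13 higher and 1 lower in cDNA, with medians of 3.27 and 2.58 (3.06 and 1.74 with the bounds). For this and the next lists, the shares over all genes were 9.54% higher and 7.67% lower in Direct RNA, and 8.69% and 9.24% in cDNA. With at least 10 reads required in every library, which removes genes absent from Undiff, 1 factor was called higher on each kit, and with a replicate block 4. The forkhead factor genes Foxf1 and Foxc2, known from mesoderm, had no read in Undiff. Foxf1 had 26 and 115 reads in Direct RNA Day4 and 13 and 47 in cDNA Day4, and Foxc2 had 61 and 91 and then 12 and 16. After 1 library was left out, 6 or 7 higher calls were made in Direct RNA and 2 to 4 in cDNA, where the call of Foxc2 was lost in each case (adjusted p from 0.13 to 0.55) and that of Foxf1 without either replicate 2 (0.15 and 0.37). Of 13 genes of TGF-beta signalling, a pathway that induces EMT, 4 of 12 were called higher in Direct RNA and 4 of 11 higher and 1 lower in cDNA, with medians of 0.82 and 0.90. The ligand gene Tgfb3 went from no read in Undiff to 87 and 116 reads in Direct RNA Day4 and 97 and 313 in cDNA Day4. Tgfb2 went from 1 and 0 reads to 60 and 93 in Direct RNA and from 2 and 0 to 218 and 340 in cDNA (adjusted p = 7.0e-09 and 3.0e-13). The cDNA call of Tgfb2 was lost without either Day4 replicate (adjusted p = 0.55 and 0.47), and the higher calls of the list numbered 2 to 4 in Direct RNA and 2 or 3 in cDNA with 1 library left out. Of 10 intermediate filament genes outside epithelia, the class of Vim, 1 of 5 was called higher and 1 lower in Direct RNA and 1 of 5 lower in cDNA.

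**Figure D5:**
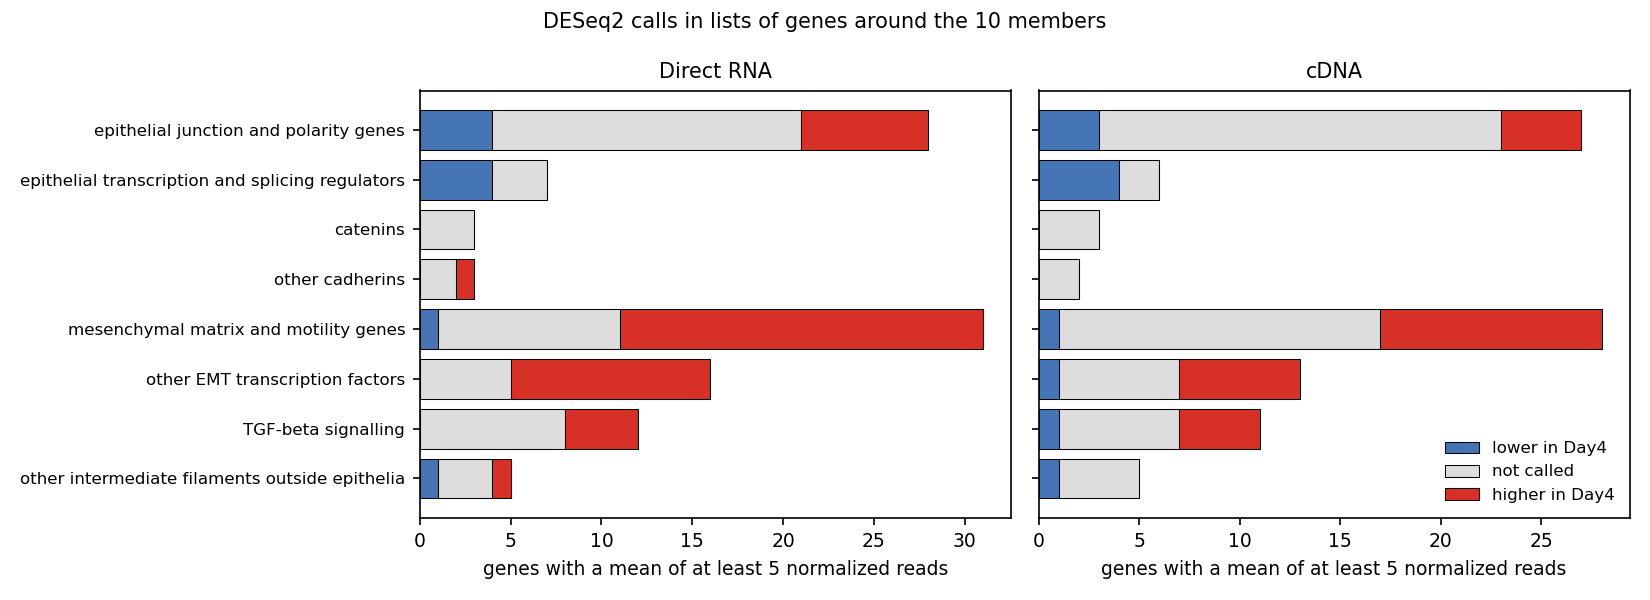
Number of genes with a mean of at least 5 normalized reads that DESeq2 called lower, did not call, or called higher in Day4, for each list and kit. The epithelial regulators hold only lower calls, the matrix genes and other EMT transcription factors hold mostly higher calls, and the junction genes hold both.

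Some markers of other cell types were called between the states, as were the members. Among all genes with a mean of at least 5, 9.54% were called higher and 7.67% lower in Direct RNA, and 8.69% and 9.24% in cDNA. Of 12 extraembryonic endoderm markers, which include epithelial genes, 8 of 10 were called higher in Direct RNA and 4 of 9 in cDNA, and their summed level ranged from 138 to 166 CPM in Direct RNA Undiff and from 1181 to 1676 CPM in Day4 (15.3 to 26.4 and 343 to 378 CPM in cDNA). Of 9 fibroblast or mesenchyme markers, 6 of 6 and 5 of 6 were called higher, and the sum ranged from 8.82 to 14.3 CPM in Direct RNA Undiff and from 1329 to 3006 CPM in Day4 (4.79 to 9.49 and 242 to 281 CPM in cDNA). All of these 9 are also in the list of mesenchymal matrix and motility genes, so the same calls were counted there. Embryonic globin genes Hba-x and Hbb-y, both of them at 0 in Undiff, made up nearly all of the 617 to 1528 CPM of the blood markers in Direct RNA Day4 and the 406 to 2478 CPM in cDNA Day4. The leukocyte marker Ptprc and the adult globin gene Hba-a1 had 0 counted reads in every library, which by itself does not show that they were absent. Of 6 endothelial markers, 3 of 4 were called higher in Direct RNA and 1 of 3 in cDNA, with sums of 70.5 to 121 CPM and 131 to 205 CPM in Direct RNA (33.7 to 35.4 and 77.4 to 93.4 CPM in cDNA). Pecam1 went the other way without a call (log2FC -1.29 in Direct RNA and -0.77 in cDNA) and held 115 and 61.7 CPM in Direct RNA Undiff. Of 8 neural markers, a mean of at least 5 was reached by 2 with Direct RNA and by 3 with cDNA. DESeq2 called 1 lower on each kit, Tubb3, which went from 164 and 127 CPM in Direct RNA Undiff to 10.6 and 14.9 CPM in Day4. Nes went the other way without a call (log2FC 1.99 in Direct RNA and 2.24 in cDNA), and Pax6 was not called in cDNA (-0.15). The neural sums, with Tubb3 as the largest part in Undiff, were 159 to 181 CPM in Direct RNA Undiff and 63.5 to 97.6 CPM in Day4 (77.0 to 178 and 46.7 to 50.1 CPM in cDNA). Of 6 trophoblast markers, 1 of 2 was called lower in Direct RNA and 0 of 3 in cDNA by DESeq2, with sums of 86.1 to 183 CPM in Direct RNA Undiff and 49.4 to 50.2 CPM in Day4 (70.6 to 186 and 19.0 to 75.6 CPM in cDNA). The part of these cell types in the levels of the 10 genes was not tested.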

How the data were processed

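The authors deposited whole-number read counts per gene symbol for 8 ONT libraries, having aligned reads to mm10 with minimap2 and counted them with htseq-count on the iGenomes UCSC annotation, with Direct RNA counted by strand and no normalization. Between 38.1% and 61.7% of reads fell on no gene and were left out. The 10 genes, the lists and the tests were chosen with earlier results of these data known. Counts were fitted over all genes with DESeq2 1.42.0 in R 4.3.3 for each kit, with shrunken fold changes and without Cook's cutoff or independent filtering, as in the study's methods. The interaction was fitted without shrinkage, and the kit test with state as a covariate, over 8 libraries. Adjusted p-values are Benjamini-Hochberg values of DESeq2 unless edgeR 4.0.16 (quasi-likelihood, TMM) is named. The fits were tested on simulated counts. From each list, up to 2 genes with the highest and up to 2 with the lowest mean fold change among those called on both kits were named, and cell type markers were named after their values were seen. Alternatives were other size factors, edgeR, at least 10 reads in every library, no shrinkage, default filtering, a replicate block and leaving out each library. Replicate counts differed by more than sampling noise (chi-square per degree of freedom from 2.68 to 14.9). Coordinates and lengths are from GENCODE vM21 on GRCm38, the assembly of mm10, and promoters from RefSeq. Short-read libraries and isoforms were not analysed here.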

Additional observations from a re-analysis of the deposited data

How the results depend on the processing

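The DESeq2 calls of Cdh1 and Vim held on both kits in every alternative that kept the gene in the test. Leaving out 1 library leaves a group of 1, which is assumed to vary like the other groups, so these fits show what a call rests on and are not a replicate check. The number of the 10 genes called went from 7 to 2 on each kit when at least 10 reads were required in every library, because most of the genes have fewer in one state. It ranged from 4 to 7 in cDNA with 1 library left out, the lowest without Day4 replicate 2, and from 5 to 6 in Direct RNA. Calls over all genes went from 1660 in Direct RNA to 3257 with edgeR, 723 with at least 10 reads and 393 to 797 with 1 library left out, and from 1842 in cDNA to 3348, 989 and 709 to 1020. With edgeR the calls of Snai1 and Zeb1 were gained on both kits, and with default filtering the cDNA call of Snai1 (adjusted p = 0.047). The lower calls among epithelial regulators were 6 on each kit with edgeR, and with at least 10 reads 0 in Direct RNA and 1 in cDNA. The interaction called 2 genes, and 14 with edgeR, 1 with TMM factors, 1 with at least 10 reads and 0 to 13 with 1 library left out, never one of the 10. Its estimate changed sign with 1 library left out for Cdh2 (-0.50 to 0.69), Snai2 (-0.18 to 1.13) and Twist1 (-1.95 to 0.028). The kit test called 5344 genes and 1674 with at least 10 reads, and 5 of the 10 genes and 1 with at least 10 reads (Vim), or 2 to 5 with 1 library left out. Its small estimates changed sign for Epcam (-0.19 with at least 10 reads, -0.12 to 0.63 with 1 library left out) and Snai2 (-0.43 to 0.19). The call of Cdh2 between kits was lost with edgeR (-0.93) and TMM factors (-0.91). With all cadherins in the denominator the mean Cdh1 share in Undiff was 82.0% in Direct RNA and 89.8% in cDNA.

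A replicate block, which the labels' shared numbers allow but do not explain, gave 843 calls in Direct RNA (825 without shrinkage). Under it the Direct RNA calls of Cdh11 (log2FC 1.67, adjusted p = 0.83, or 9.95 and 0.15 without shrinkage) and Snai2 (3.65, adjusted p = 0.071) were lost, and no other call of the 10 genes changed. The replicate block took the higher calls among matrix genes from 20 to 12 in Direct RNA and 11 to 5 in cDNA, among other EMT factors from 11 to 4 and 6 to 4, among junction genes from 7 to 3 and 4 to 3 and among TGF-beta genes from 4 to 1 and 4 to 2, and the lower calls among junction genes from 4 to 1 and 3 to 2 and among epithelial regulators from 4 to 1 and 4 to 4. The replicate differences of the 2 states correlated with r = 0.22 in Direct RNA and 0.50 in cDNA over 1395 genes, and those of the kits with r = 0.13 in Undiff and -0.42 in Day4. With the Day4 numbers crossed between kits, an alternative chosen after seeing the data, the replicate block gave 5081 calls in the kit test against 5049 uncrossed, and 1 call in the interaction, and the kit estimate of Snai2 was -0.065 against -0.037 uncrossed. With 2 replicates a group and few Undiff reads, depth limits the size of every fold printed for Cdh11, Cdh2, Snai1, Snai2, Zeb1, Zeb2 and Twist1. Their reads in an Undiff library went from 0 (Cdh11 in each) up to 20 (Snai1 in Direct RNA replicate 2).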
